A study of Mus musculus with 11 samples.

Results

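The 10 genes described here are Jag1 and its partners in Notch signalling: the ligand genes Jag1, Jag2 and Dll1, the receptor genes Notch1, Notch2 and Notch3, the target genes Hes1, Hey1 and Heyl, and Lfng, which encodes a receptor-modifying enzyme. They were taken by symbol from the 48299 genes of the deposited count table, and all 10 were found there. The set was chosen by its Jag1 values, the high level in cells with a Map3k7 hairpin, so the Jag1 differences of those cells from shControl and from shChd1 are given as a description, with no test. For 9 of the 10 genes the counts were high enough to be tested. Heyl was not tested.

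Notch receptors are membrane proteins that are cut when a ligand on a neighbouring cell pulls on them. The released intracellular part enters the nucleus, joins the DNA-binding protein RBPJ and Mastermind coactivators, and switches on targets of the Hes and Hey families, which are repressors. In the prostate the pathway is known for its part in progenitor cell maintenance and in the balance between basal and luminal cells.

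RNA sequencing was done on 11 libraries from WFU3 cells, which are cultured epithelial stem cells of the mouse prostate. All carried lentiviral short hairpin RNAs, and every library held 2 constructs. Knockdown of Map3k7 (the gene of TAK1, a kinase) was crossed with that of Chd1 (a remodeller of chromatin), and so the design asks what each does alone and together. Both genes are deleted in some human prostate cancers.

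The shControl group (3 libraries) held control hairpins only: an unnumbered line at passage 30 marked for puromycin and neomycin (replicate 1), and the control clones 4 and 5 at passage 52, marked by GFP and puromycin (replicates 2 and 3). The shMap3k7 group (2 libraries) held a Map3k7 hairpin with GFP and a control hairpin with puromycin, in 2 clones, clone 1 (passage 49) and then clone 7 (at passage 47). The shChd1 group (2 libraries) held a control hairpin with GFP and a Chd1 hairpin with puromycin, and both libraries, of construct 96526 at passage 52 and of construct 96528 at passage 50, were made from control clone 4. The shDouble group (4 libraries) held the Map3k7 and a Chd1 hairpin: constructs 96526 and 96528 in Map3k7 clone 1 at passage 49 (replicates 1 and 2) and in Map3k7 clone 7 at passage 48 (replicates 3 and 4). Knockdown of Map3k7 was thus seen in 2 clones, and knockdown of Chd1 without it in 1. No library of Map3k7 clone 1 or 7 lacked the Map3k7 hairpin, so that hairpin and the history of these 2 clones cannot be told apart. The labels do not say that the libraries of a group were separate cultures, and several share a clone, so p-values measure only the spread between these samples.

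Total counts ran from 14132371 to 23163709 per library, and a count of 3 corresponded to 0.133 to 0.217 counts-per-million (CPM). Map3k7 was at 134 ± 8.91 CPM in shControl (SD, n = 3), 41.5 ± 2.07 in shMap3k7 (n = 2), 138 ± 0.264 in shChd1 (n = 2) and 41.0 ± 1.27 in shDouble (n = 4). Chd1 was at 204 ± 8.61, 229 ± 12.4, 148 ± 3.43 and 186 ± 16.3 CPM in the same order. Chd1 was lower in 6 of 6 libraries with a Chd1 hairpin than in the same clone without one, and in shDouble it was not distinguishable from shControl (edgeR adjusted p = 0.291). The luminal markers Krt8, Krt18, Krt19, Epcam and Cdh1 were found in every group. Of the basal keratin genes, Krt14 was at 3906, 1372 and 1542 CPM in shControl and at 1643 to 2406 CPM in shDouble. Krt5 was at 48.9 CPM in shControl replicate 1 and at most at 1.93 CPM in any other library. Replicate 1 also stood apart in endothelial genes, which summed to 55.4 CPM there (Pecam1 alone 17.0 CPM) and to at most 0.498 CPM in every other library.

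Divided by exon length, the 10 genes covered a wide range in control cells. Per kilobase of annotated exon, Notch2 had the highest level in shControl with 30.1 ± 5.49 CPM (SD, n = 3), followed by Hes1 with 22.8 ± 3.44, Notch1 with 20.5 ± 2.998, Lfng with 19.6 ± 2.10, Jag1 with 18.7 ± 2.05 and Jag2 with 14.6 ± 3.77. Dll1 had 7.94 ± 4.35, Notch3 2.29 ± 1.76 and Hey1 0.791 ± 0.657 CPM per kilobase, and Heyl was at 0. The intervals of mean ± SD overlapped between neighbours among the 9 detected genes, while distant positions, such as Notch2 and Dll1, were separated. In shDouble the order opened with Jag1, at 67.3 ± 6.25 CPM per kilobase (SD, n = 4), ahead of Hes1 with 38.6 ± 5.80 and Notch1 with 24.1 ± 2.32, and these levels were separated by more than their SDs. In shChd1 Jag1 lay far down, at 7.38 ± 1.81 CPM per kilobase (SD, n = 2), while Notch1 with 34.9 ± 2.36 and Notch2 with 30.8 ± 5.03 led.

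**Figure D1:**
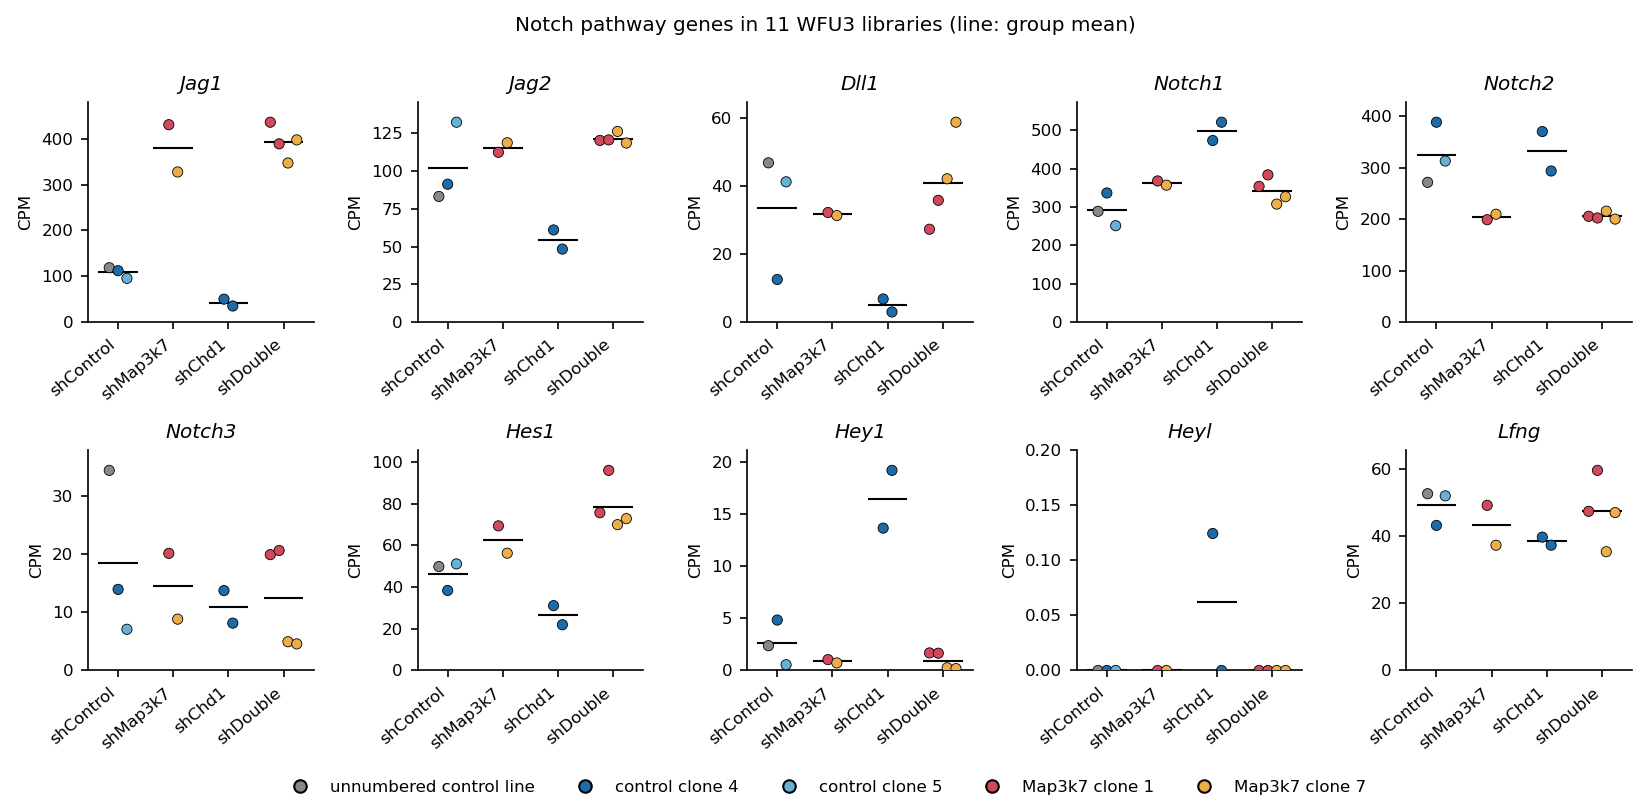
Levels of the 10 Notch genes in CPM (vertical axis, linear from 0, a different scale for each gene) in the 11 libraries by group, with 1 point for each library, coloured by the line or clone it came from, and a horizontal bar for the group mean. Jag1 lay between 327 and 436 CPM in the 6 libraries with a Map3k7 hairpin and between 35.5 and 119 CPM in the 5 without one.

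Jag1 lies on chromosome 2 (137081456 to 137116644, minus strand; positions here are GRCm38, counted from 1) and encodes Jagged1, a ligand that acts between touching cells. Its level was 119, 112 and 95.7 CPM in shControl replicates 1, 2 and 3, and 430 and 327 CPM in the shMap3k7 clones 1 and 7. In shChd1 it was 50.5 and 35.5 CPM, and in shDouble 436, 389, 347 and 397 CPM. Every library with a Map3k7 hairpin was above every library without, and both shChd1 libraries were below the 3 controls. The fitted level was 3.48-fold higher in shMap3k7 than in shControl (log2 1.80 ± 0.17 SE) and 3.60-fold higher in shDouble (log2 1.85 ± 0.15).

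These 2 comparisons share their control libraries. Against shControl, Jag1 fell 2.53-fold in shChd1 (log2 -1.34 ± 0.18, edgeR adjusted p = 0.0248). The fitted Jag1 level was 9.12-fold higher in shDouble than in shChd1 (log2 3.19 ± 0.19), a description that rests on the same high values. Adding a Chd1 hairpin to the Map3k7 clones left Jag1 within the spread of the libraries (log2 0.05 ± 0.16, edgeR adjusted p = 1).

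The Jag1 promoter carries 2 matches to the E box CACGNG, the class of element that Hes and Hey repressors bind, and Dll1, which was also lower in shChd1, has 2 RefSeq promoter windows with 1 match each. They are shown because these ligand genes fell together in shChd1. The sequences are the 250 bases before each gene start, from RefSeq on GRCm38.p6 and on the gene's strand, with the matches in capitals. Jag1 is chr2:137116521-137116770 and Dll1, the window farther upstream, is chr17:15376933-15377182, both minus strand.
Jag1: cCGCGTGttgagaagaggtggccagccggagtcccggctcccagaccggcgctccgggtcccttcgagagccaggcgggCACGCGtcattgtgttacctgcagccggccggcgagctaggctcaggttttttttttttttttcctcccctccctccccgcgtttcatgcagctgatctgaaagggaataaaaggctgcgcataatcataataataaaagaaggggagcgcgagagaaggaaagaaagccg
Dll1: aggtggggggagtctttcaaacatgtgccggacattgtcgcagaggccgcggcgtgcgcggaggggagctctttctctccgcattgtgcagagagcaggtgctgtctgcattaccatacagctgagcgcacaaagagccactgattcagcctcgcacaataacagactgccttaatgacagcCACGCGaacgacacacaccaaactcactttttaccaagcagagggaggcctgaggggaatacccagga
The Jag1 matches lie 249 to 244 and 171 to 166 bases before the start, and the Dll1 match 68 to 63 bases before it. In the other Dll1 window the match lies 105 to 100 bases before that window's start site. A promoter entry was found for 7 of the 10 genes (not Hes1, Hey1 or Heyl), in 8 windows of 250 bases before to 50 after the start. Searched on both strands, CACGNG occurred in 27.5% of the 32851 windows of all genes. It was found in the windows of Jag2 (19 to 24 bases after the start), Lfng, Notch2 and Notch3 as well. A match is only a match of letters.

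Jag2 (chromosome 12, 112907819 to 112929776, minus strand) encodes the second Jagged ligand. It was at 83.0, 91.1 and 132 CPM in shControl, 112 and 118 in shMap3k7, 60.9 and 48.3 in shChd1, while shDouble had 120, 120, 126 and 118. The shChd1 libraries were the lowest, and the libraries with a Map3k7 hairpin lay inside the control range. Jag2 fell 1.87-fold in shChd1 against shControl (log2 -0.90 ± 0.18, edgeR adjusted p = 0.0385) and this call was lost in 12 of 19 alternatives (adjusted p up to 0.524), among them every single-library omission but that of shControl replicate 2. It was 2.22-fold higher in shDouble than in shChd1 (log2 1.15 ± 0.18, edgeR adjusted p = 0.000703). Against shControl its log2 difference was 0.18 ± 0.18 in shMap3k7 and 0.25 ± 0.15 in shDouble, and neither passed the test (edgeR adjusted p = 0.545 and 0.253). Without shControl replicate 3, its highest control, Jag2 passed the test in shDouble (log2 0.48, edgeR adjusted p = 0.0123).

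Dll1 (chromosome 17, 15367354 to 15376872, minus strand) encodes Delta-like 1. It was at 46.7, 12.6 and 41.2 CPM in shControl, 32.2 and 31.3 in shMap3k7, 6.84 and 3.03 in shChd1, while shDouble had 27.3, 35.8, 42.1 and 58.7. Control clone 4 was well below the other controls, and both shChd1 libraries, made from it, were lower still. Dll1 fell 6.76-fold in shChd1 against all controls (log2 -2.76 ± 0.58, edgeR adjusted p = 0.042). With the clone as a replicate block, which compares shChd1 with control clone 4 alone, the log2 difference was -1.35 and did not pass the test (edgeR adjusted p = 0.157). Dll1 was 8.26-fold higher in shDouble than in shChd1 (log2 3.05 ± 0.57, edgeR adjusted p = 0.00191), but with the clone as a random replicate block the log2 difference was 1.84 (limma voom adjusted p = 0.135). Dll1 shares 867 exon bases with A930024N18Rik on the other strand, and since strand marking is not given in the sources used here, their reads cannot be told apart.

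Notch1 (chromosome 2, 26457903 to 26516663, minus strand) had its highest levels in shChd1. It was at 289, 336 and 251 CPM in shControl, 368 and 357 in shMap3k7, 473 and 521 in shChd1, while shDouble had 354, 384, 308 and 327. The shChd1 libraries were above all others, and the shMap3k7 libraries were just above the controls. Notch1 rose 1.70-fold in shChd1 against shControl (log2 0.77 ± 0.13, edgeR adjusted p = 0.0286) and was lower in shDouble than in shChd1 (log2 -0.53 ± 0.12, edgeR adjusted p = 0.00559). The latter call was lost without shChd1 replicate 2 (edgeR adjusted p = 0.0663) and with the random replicate block (limma voom adjusted p = 0.0775). Against shControl, the log2 differences of 0.31 ± 0.13 in shMap3k7 and 0.23 ± 0.11 in shDouble did not pass the test (edgeR adjusted p = 0.148 and 0.158). Notch1 shares 1068 exon bases with 0610009E02Rik and 414 with Gm13568, both on the other strand.

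Notch2 (chromosome 3, 98013527 to 98150361, plus strand) was the receptor gene that fell with a Map3k7 hairpin. It was at 272, 389 and 313 CPM in shControl, 199 and 210 in shMap3k7, 371 and 294 in shChd1, while shDouble had 206, 203, 216 and 201. The 6 libraries with a Map3k7 hairpin lay in a narrow band below all 5 others. Notch2 fell 1.59-fold in shMap3k7 (log2 -0.67 ± 0.15, edgeR adjusted p = 0.0194) and 1.57-fold in shDouble (log2 -0.65 ± 0.12, edgeR adjusted p = 0.00426, and 0.0723 with counts summed per clone) against the same controls, and was 1.61-fold lower in shDouble than in shChd1 (log2 -0.69 ± 0.14, edgeR adjusted p = 0.00244). In shChd1 it did not differ beyond its error from shControl (log2 0.03 ± 0.15, edgeR adjusted p = 0.909). The call in shMap3k7 was lost without shMap3k7 replicate 1 (edgeR adjusted p = 0.126) or 2 (0.0818) and with the random replicate block (limma voom adjusted p = 0.0526), which also ended the call against shChd1 (0.0713).

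TAK1 is known as an activating kinase upstream of NF-kB. The promoter of Notch2 is shown with its match to the NF-kB consensus in capitals, and a link of either to the Notch2 level was not tested. The sequence is chr3:98013288-98013537, plus strand, the 250 bases before the RefSeq start on GRCm38.p6.
Notch2: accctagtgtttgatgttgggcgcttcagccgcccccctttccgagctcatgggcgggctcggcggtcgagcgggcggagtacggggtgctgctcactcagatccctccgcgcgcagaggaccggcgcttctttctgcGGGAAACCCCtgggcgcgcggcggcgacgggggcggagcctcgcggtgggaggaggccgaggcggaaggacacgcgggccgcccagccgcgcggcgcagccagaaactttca
The match lies 112 to 103 bases before the start and reads as a match on both strands. It was the only match of this motif among the promoters of the 7 genes, and 4.50% of all 32851 windows held 1 or more.

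Notch3 (chromosome 17, 32120820 to 32166852, minus strand) differed between clones within a group. It was at 34.5, 13.96 and 7.09 CPM in shControl, 20.2 and 8.84 in shMap3k7, 13.8 and 8.16 in shChd1, while shDouble had 19.9, 20.7, 4.95 and 4.58. The libraries of Map3k7 clone 1 were at 19.9 to 20.7 CPM and those of clone 7 at 4.58 to 8.84 CPM, with or without a Chd1 hairpin. No comparison between groups passed the test, and SEs of 0.65 to 0.80 on the log2 scale meant that only large changes could have been seen.

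Hes1 (chromosome 16, 30064384 to 30067796, plus strand), a repressor gene that is a direct Notch target in many tissues, had the same order of group means as Jag1. It was at 49.9, 38.4 and 51.1 CPM in shControl, 69.4 and 56.3 in shMap3k7, 31.1 and 21.9 in shChd1, while shDouble had 75.7, 96.0, 70.0 and 72.9. The 4 groups did not overlap: shChd1 was lowest, then shControl, shMap3k7 and shDouble. Hes1 rose 1.69-fold in shDouble against shControl (log2 0.76 ± 0.17, edgeR adjusted p = 0.00917; 0.06 with counts summed per clone) and was 2.96-fold higher in shDouble than in shChd1 (log2 1.57 ± 0.20, edgeR adjusted p = 0.000276). In shMap3k7 alone the log2 difference of 0.44 ± 0.19 did not pass the test (edgeR adjusted p = 0.165). In shChd1 it was -0.81 ± 0.20 (edgeR adjusted p = 0.0592), and this passed when shControl replicate 2, their clone of origin, was left out (0.0125). With the clone as a replicate block it was -0.54 (fixed, edgeR adjusted p = 0.215) or -0.63 (random, limma voom adjusted p = 0.102). Across all 11 libraries the log2 CPM of Hes1 had a Pearson r of 0.936 with that of Jag1, a description over libraries that share clones.

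Hey1 (chromosome 3, 8663359 to 8667256, minus strand), of the related Hey family, differed the other way between shDouble and shChd1. It was at 2.37, 4.83 and 0.550 CPM in shControl, 1.04 and 0.724 in shMap3k7, 13.6 and 19.2 in shChd1, while shDouble had 1.68, 1.65, 0.260 and 0.178. The shChd1 libraries were far above every other, and among the controls the highest was clone 4, from which they derive. Hey1 was lower in shDouble than in shChd1 (log2 -4.07 ± 0.81, edgeR adjusted p = 0.00251, and 0.0704 with counts summed per clone). Against shControl, its log2 difference was 2.66 ± 0.84 in shChd1 (edgeR adjusted p = 0.0952), -1.54 ± 0.99 in shMap3k7 (0.329) and -1.42 ± 0.76 in shDouble (0.201). The value in shChd1 passed without shControl replicate 2 (log2 3.50, edgeR adjusted p = 0.0293) and with the clone as a random replicate block (log2 2.60, limma voom adjusted p = 0.0306). Against control clone 4 alone (fixed replicate block), the clone from which both shChd1 libraries derive, it was 1.76 (edgeR adjusted p = 0.0737).

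Heyl (chromosome 4, 123233556 to 123249875, plus strand) had 0 counts in 10 libraries and 2 counts in shChd1 replicate 1, which is 0.124 CPM. Its RNA was not detectable at this depth.

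Lfng (chromosome 5, 140607320 to 140615545, plus strand) encodes a sugar transferase that changes which ligands a Notch receptor answers to. It was at 52.6, 43.1 and 51.9 CPM in shControl, 49.1 and 37.2 in shMap3k7, 39.6 and 37.2 in shChd1, while shDouble had 47.3, 59.5, 35.3 and 46.9. The groups overlapped except that both shChd1 libraries were just below the controls. Its log2 differences from shControl were -0.19 ± 0.20 in shMap3k7, -0.36 ± 0.20 in the shChd1 libraries and -0.06 ± 0.17 in the shDouble libraries, and none passed the test. Of the 7 promoters, only that of Lfng held the RBPJ core TGGGAA, on either strand, which 25.6% of all 32851 windows held. The sequence is chr5:140607091-140607340, plus strand, the 250 bases before the RefSeq start on GRCm38.p6, with both matches in capitals.
Lfng: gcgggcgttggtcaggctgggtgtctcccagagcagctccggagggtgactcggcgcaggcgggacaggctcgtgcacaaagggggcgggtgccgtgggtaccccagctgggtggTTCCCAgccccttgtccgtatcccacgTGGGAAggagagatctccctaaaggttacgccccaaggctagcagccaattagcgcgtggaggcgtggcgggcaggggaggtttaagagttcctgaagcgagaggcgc
The first match is on the minus strand, 135 to 130 bases before the start. The second is on the plus strand, 108 to 103 bases before it, and overlaps an E box match. The Lfng promoter is shown as the only 1 of the 7 with this core, from a gene that was called in no comparison.

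Counted over the 9 tested genes, shMap3k7 against shControl had 2 calls (Jag1 higher and Notch2 lower), where edgeR called 11.9% of all 14346 genes tested (4.86% higher and 7.08% lower), and shDouble against shControl had 3 (Jag1 and Hes1 higher and Notch2 lower), where it called 23.8% (10.2% higher and 13.6% lower). Groups did not overlap for Jag1, Notch1 and Hes1 (higher) and Notch2 (lower) in shMap3k7, beside 20.9% and 22.0% of all genes, and for Jag1 and Hes1 (higher) and Notch2 (lower) in shDouble, beside 15.9% and 16.7%. Without shControl replicate 1, the library that stood apart, the counts of Notch calls were 2 in shMap3k7 and 3 in shDouble. Since Jag1 led to the choice of the genes, these counts are given as they are. The median log2 change of the 9 was -0.08 in shMap3k7 and 0.23 in shDouble, beside -0.01 and -0.002 over all genes. The comparison of shDouble with shChd1 had 7 calls of 9, with 4 higher (Jag1, whose high level chose the set, and Jag2, Dll1 and Hes1) and 3 lower (Notch1, Notch2 and Hey1). The background there was high: 44.8% of all genes were called, 22.6% higher and 22.2% lower. The same 7 genes had groups that did not overlap, beside 31.8% of all genes higher and 31.9% lower. Without any 1 shControl or shDouble library, edgeR called between 5752 and 6585 of all genes in place of 6426, and 7 of the Notch genes. Fewer of all genes were called without a shChd1 library, which leaves 1 in that group. The 7 Notch calls fell to 4 with the clone as a random replicate block (limma voom) and to 3 with counts summed per clone. Jag1 is in each of these Notch counts, and for Jag1 they are no test.

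In shChd1 against shControl 4 of 9 were called, with 3 lower (Jag1, Jag2 and Dll1) and 1 higher (Notch1), and their median log2 change was -0.75 against -0.01 for all genes. Over all genes edgeR called 2.91% (0.662% higher and 2.24% lower). Groups did not overlap for 5 of the 9 lower (Jag1, Jag2, Dll1, Hes1 and Lfng) and 2 higher (Notch1 and Hey1), beside 23.4% and 23.1% of all genes. These calls were near the threshold and depended on single libraries. Without any 1 of the libraries other than shControl replicate 2, edgeR called between 0 and 72 genes in place of 417, and between 0 and 2 of the Notch genes. Without shControl replicate 2 it called 2650 genes and 6 Notch genes. Jag1 kept its call without any 1 shMap3k7 or shDouble library, and lost it without shControl replicate 1 (edgeR adjusted p = 0.0612) or 3 (0.0604) and without shChd1 replicate 1 (0.0572) or 2 (0.394). With the clone as a fixed replicate block, Jag1 (log2 -1.39, edgeR adjusted p = 0.0104), Jag2 (log2 -0.74, 0.0302) and Notch1 (log2 0.56, 0.0419) were called. Since both shChd1 libraries come from 1 clone, the hairpins and the history of that clone cannot be told apart by this comparison alone.

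**Figure D2:**
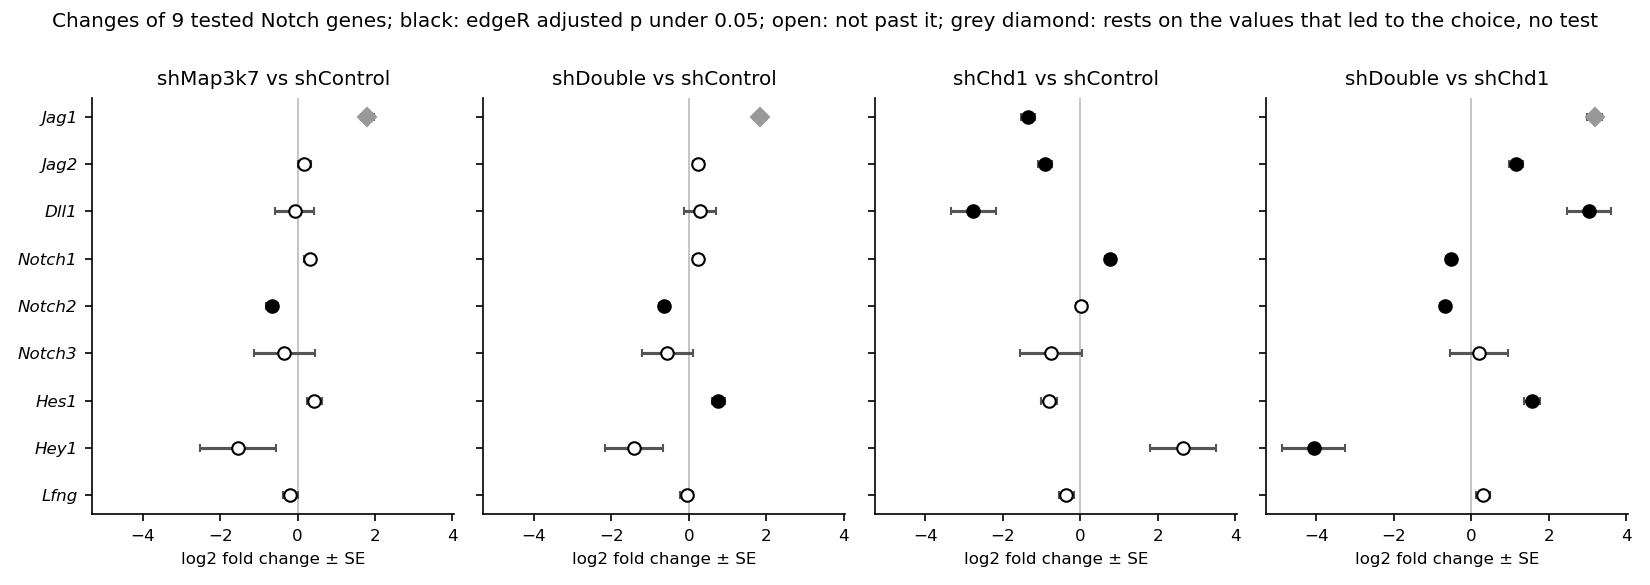
Log2 fold changes (horizontal axis) of the 9 tested Notch genes in 4 comparisons, with bars of 1 SE. Black points passed the edgeR test over all genes, open points did not, and grey diamonds mark Jag1 differences that rest on the values that led to the choice of the genes. Jag1 stood at 1.80, 1.85 and 3.19 where so marked, and at -1.34 in shChd1 against shControl.

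The same Chd1 constructs could be followed inside 3 clones, each with 1 library without and 2 with a Chd1 hairpin. In control clone 4, Jag1 was lower with construct 96526 by 1.15 and with construct 96528 by 1.66 on the log2 scale. In the Map3k7 clones the log2 differences of Jag1 were 0.02 and -0.15 (clone 1) and 0.08 and 0.28 (clone 7). The 2 pairs of a clone share 1 library without a Chd1 hairpin, so they are not independent, and these Jag1 differences are a description.

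Jag2, Dll1 and Hes1 were also lower in both pairs of control clone 4. So were Notch2 (-0.07 and -0.40), Notch3 (-0.02 and -0.77) and Lfng (-0.12 and -0.21), each with a small difference in 1 pair or both. There the log2 differences of Hes1 were -0.30 and -0.80, whereas in the Map3k7 clones they were 0.13, 0.47, 0.31 and 0.37. Notch1 was higher in both pairs of control clone 4 (0.49 and 0.63) and between -0.21 and 0.06 in the 4 others. Hey1 split 3 ways: log2 differences were 1.48 and 1.96 in control clone 4, 0.64 and 0.61 in Map3k7 clone 1, and -1.17 and -1.52 in Map3k7 clone 7, where its counts were lowest.

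A single Chd1 term over the 9 libraries of these 3 clones, with the clone as replicate block, called none of the 9 Notch genes by edgeR. DESeq2 called none either, and at an unadjusted p under 0.05 there was 1 (Hey1, log2 1.05 ± 0.43). Over all genes 0.0271% were called and 4.93% had such an unadjusted p. Within the Map3k7 clones, shDouble against shMap3k7 also gave 0 Notch calls of 9 by edgeR, none at an unadjusted p under 0.05 and 0 by DESeq2, where edgeR called 0% of all genes and 0.802% had such an unadjusted p. Hes1 was higher in all 4 shDouble libraries than in either shMap3k7 library (log2 0.32 ± 0.19), an arrangement that 3.56% of all genes shared, and no Notch gene was lower in all 4 (3.15% of all genes were).

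Whether the Chd1 hairpins acted differently with and without Map3k7 knockdown was tested as an interaction. By edgeR it was called for 0 of the 9 Notch genes and for 0% of all genes. At an unadjusted p under 0.05 there were 5 of 9, beside 13.9% of all genes. On the log2 scale the interaction was 0.97 ± 0.25 for Jag2 (edgeR adjusted p = 0.194) and 3.12 ± 0.75 for Dll1 (0.185). It was -0.84 ± 0.18 for Notch1 (0.18) and 1.13 ± 0.28 for Hes1 (0.185). For Jag1, the last of the 5, it was 1.39 ± 0.24, a description, since it rests in part on the values that chose the set. DESeq2 called these 5 genes and 395 genes in all. Without shControl replicate 2 (control clone 4), edgeR called 1006 genes, among them Jag1, Jag2, Dll1, Notch1 and Hes1. Both shChd1 libraries derive from that clone, so this omission leaves them without a control of their own clone. With the clone as a fixed replicate block, edgeR called 0 Notch genes and 11 genes in all. There the log2 interaction was 0.81 for Jag2 (edgeR adjusted p = 0.0834) and 1.66 for Dll1 (0.209). For Notch1 it was -0.64 (0.096) and for Hes1 0.86 (0.187). In all these counts Jag1 stands as a description.

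**Figure D3:**
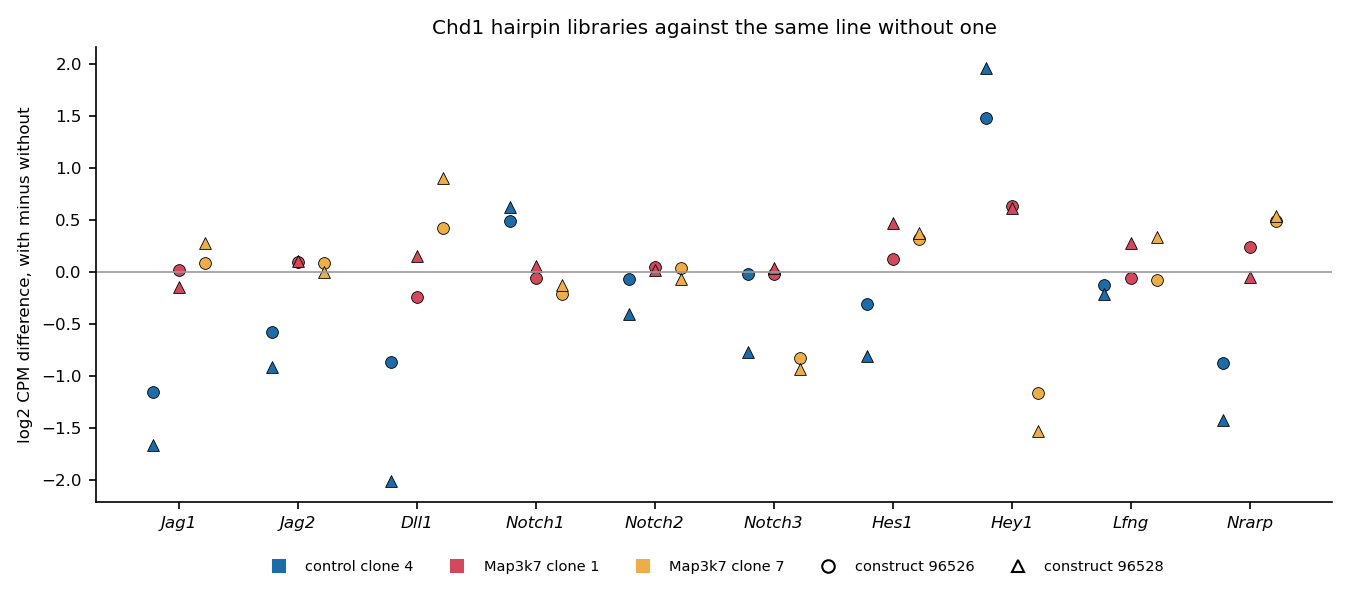
Difference in log2 CPM between each library with a Chd1 hairpin and the library of the same clone without one (vertical axis), for the 9 tested Notch genes and Nrarp, by clone (colour) and construct (marker shape). For Jag1, Jag2, Dll1, Hes1 and Nrarp the control clone 4 points were the lowest, as they narrowly were for Notch2 and Lfng, and for Hey1 the 3 clones lay apart.

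Beyond the 10 genes, 64 further pathway genes were listed by role, and 52 of them were tested. In shMap3k7 against shControl 3 rose and 2 fell, in shDouble against shControl 6 rose and 6 fell, in shChd1 against shControl 1 rose and 2 fell, and in shDouble against shChd1 11 rose and 16 fell. In these 4 comparisons the shares of all genes called were those given above. The alternative settings were not examined gene by gene for the further pathway genes. Their calls in shChd1 belong to a comparison that depended on single libraries. No further pathway gene was called by edgeR in shDouble against shMap3k7, in the interaction or for Chd1 hairpins within clones, with 1, 11 and 7 of 52 at an unadjusted p under 0.05.

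Among the targets and feedback genes, Nrarp, whose protein binds the RBPJ complex and dampens Notch signalling, followed Jag1. It was at 18.0, 8.98 and 16.9 CPM in shControl, 36.3 and 33.9 in shMap3k7, 4.85 and 3.29 in shChd1, while shDouble had 43.0, 35.1, 47.8 and 49.3. The groups with and without a Map3k7 hairpin did not overlap, and shChd1 was lowest. Nrarp rose in shMap3k7 (log2 1.26 ± 0.27, edgeR adjusted p = 0.0157) and in shDouble (log2 1.58 ± 0.23, edgeR adjusted p = 0.00146). It fell in shChd1 against all controls (log2 -1.84 ± 0.31, edgeR adjusted p = 0.0286) and was higher in shDouble than in shChd1 (log2 3.42 ± 0.32, edgeR adjusted p = 7.17e-05). Control clone 4, from which both shChd1 libraries derive, was the lowest control (8.98 CPM). Against that clone alone the log2 differences were -0.87 (construct 96526) and -1.42 (construct 96528), which were not tested on their own.

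Hey2 was rare, with 0, 1 and 3 counts in shControl, 17 and 33 in shMap3k7, 1 and 0 in shChd1, while shDouble had 20, 32, 32 and 27. Every library with a Map3k7 hairpin had more counts than any without. The pooled ratio was 22.9 for shMap3k7 over shControl (95% counting interval 8.41 to 87.3), 18.5 for shDouble over shControl (7.01 to 68.9) and 44.0 for shDouble over shChd1 (7.74 to 1754), intervals that cover counting error only. edgeR called all 3 (adjusted p = 0.00711, 0.00288 and 0.00187). Hey2 reached the minimum count of 10 only in libraries with a Map3k7 hairpin. It was thus tested only because it was high there, and these p-values are no further support. In their counts, Hey1 and Hey2, paralogs, differed in opposite directions between shDouble and shChd1.

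Of the 9 genes of the RBPJ complex and its coactivators, 2 fell in shMap3k7 and 3 in shDouble, and none rose, where edgeR called 7.08% and 13.6% of all genes lower. Rbpj, the DNA-binding subunit, was at 63.2, 124 and 105 CPM in shControl, 52.5 and 51.4 in shMap3k7, 142 and 178 in shChd1, while shDouble had 57.1, 47.5, 63.2 and 59.8. The lowest control, replicate 1, was level with the highest shDouble library. Rbpj fell in shMap3k7 (log2 -0.91 ± 0.24, edgeR adjusted p = 0.0378) and in shDouble (log2 -0.78 ± 0.20, edgeR adjusted p = 0.018). Maml1, a Mastermind coactivator, was at 55.0 to 62.4 CPM in shControl and 34.0 to 39.9 CPM in the 6 libraries with a Map3k7 hairpin, and fell in shMap3k7 (log2 -0.67 ± 0.11, edgeR adjusted p = 0.00482) and in shDouble (log2 -0.60 ± 0.09, edgeR adjusted p = 0.00121). Against shChd1, where 22.2% of all genes were called lower, 6 of these 9 genes were lower in shDouble, among them Maml1 (log2 -0.81 ± 0.10, edgeR adjusted p = 0.000195), and only the acetyltransferase gene Kat2a was higher (log2 0.38 ± 0.09, edgeR adjusted p = 0.007).

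Of the 11 corepressors, Tle4, of the Groucho family, was called in 3 comparisons. It was at 3.81, 5.24 and 6.10 CPM in shControl, 26.5 and 18.0 in shMap3k7, 4.29 and 3.10 in shChd1, while shDouble had 23.3, 20.9, 18.4 and 13.5. Libraries with a Map3k7 hairpin were at least at 13.5 CPM and all others at most at 6.10 CPM. Tle4 rose in shMap3k7 (log2 2.14 ± 0.28, edgeR adjusted p = 0.00213) and shDouble (log2 1.91 ± 0.25, edgeR adjusted p = 0.000788), and was higher in shDouble than in shChd1 (log2 2.36 ± 0.30, edgeR adjusted p = 0.000281). Spen, which holds RBPJ in its repressing form, rose in shDouble against shControl by log2 0.47 ± 0.12 (edgeR adjusted p = 0.0172).

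Among receptor processing and turnover genes, none of 10 protease and gamma-secretase genes was called in shMap3k7 or shChd1 against shControl. In shDouble against shControl 1 of the 10 rose and 2 fell, beside 10.2% and 13.6% of all genes. Psen2 rose (log2 0.62 ± 0.16, edgeR adjusted p = 0.0202), and Adam10, which makes the ligand-triggered cut, fell (log2 -0.55 ± 0.14, edgeR adjusted p = 0.0209). Among the fringe and glycosylation genes, Pofut1, which adds fucose to Notch, was lower in shDouble than in shChd1 (log2 -0.62 ± 0.16, edgeR adjusted p = 0.00894). Of 15 endocytosis and ubiquitin ligase genes, Nedd4 rose in shChd1 (log2 0.68 ± 0.15, edgeR adjusted p = 0.0466) and fell in shDouble (log2 -0.49 ± 0.13, edgeR adjusted p = 0.0206). Lnx1 fell in shChd1 (log2 -1.71 ± 0.38, edgeR adjusted p = 0.047), and Fbxw7, which marks the intracellular Notch fragment for breakdown, rose in shDouble (log2 0.37 ± 0.11, edgeR adjusted p = 0.0386). The shChd1 calls of Nedd4 and Lnx1 were just under the threshold.

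**Figure D4:**
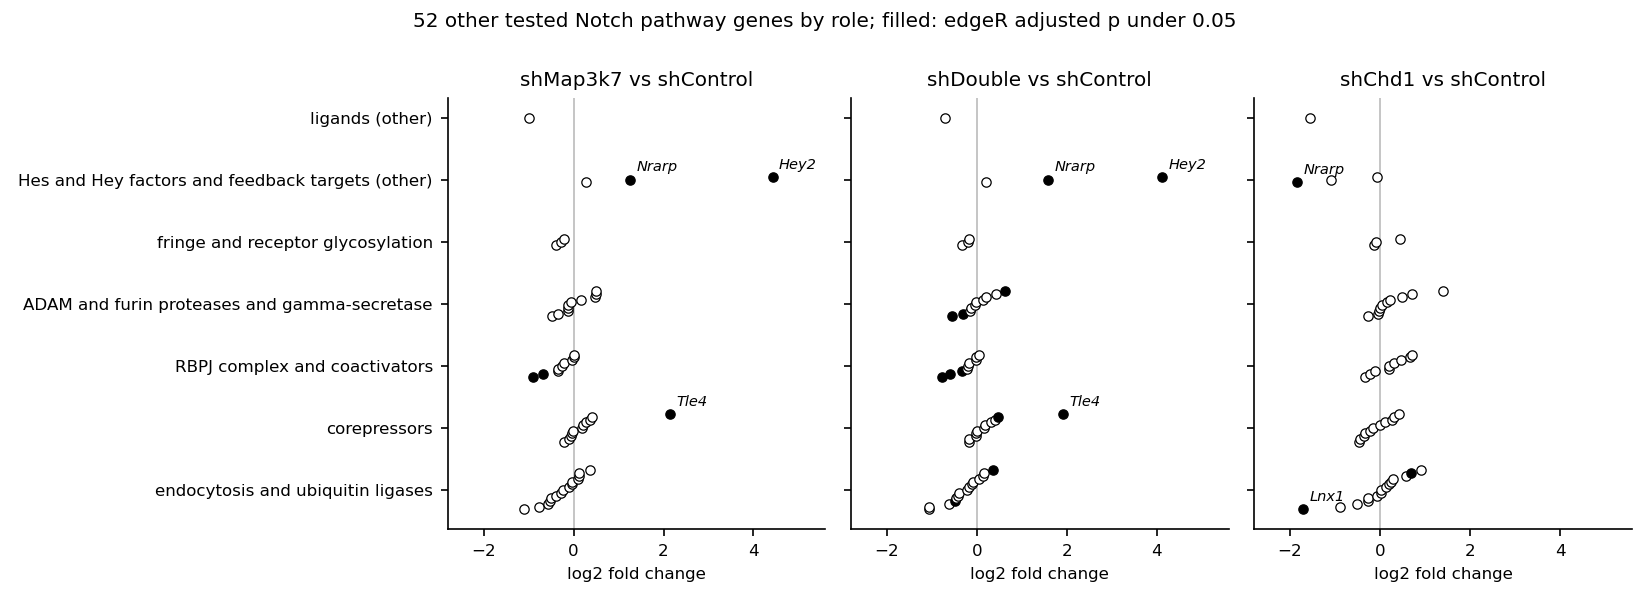
Log2 fold changes (horizontal axis) against shControl of the 52 other tested pathway genes, 1 point a gene, arranged by role, with black points past the edgeR test and open points not past it. Names are given for called genes that changed by more than 1 log2 unit, and Hey2, Nrarp and Tle4 lay far to the right in both comparisons with a Map3k7 hairpin.

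The 5 genes whose log2 CPM was most like that of Jag1 over the 11 libraries, out of 9908 tested genes that averaged 5 CPM or more, were Pprc1 (Pearson r = 0.990), Pdcd11 (0.987), Cdca5 (0.985), Kbtbd8 (0.985) and Myof (0.984). Their own fold changes were smaller: shDouble over shControl was between 1.29 and 2.53, beside 3.60 for Jag1. Of these 5 genes, 4 lie on chromosome 19 (Kbtbd8 does not), and the median gene of that chromosome lay 0.27 to 0.48 log2 units above the mean of the shControl libraries in the libraries of the Map3k7 clones, and between -0.06 and 0.04 in the others. Jag1 lies on chromosome 2, whose median stayed between -0.06 and 0.04 in all 11 libraries. Nrarp was at rank 69 (r = 0.963) and Hes1 at rank 312, and Notch2 (r = -0.860) and Map3k7 (r = -0.932) ran opposite. These libraries share clones and controls, so the values only order the genes.

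By their sums, made up mostly of Krt8 and Krt18, luminal marker genes were high and low in the same groups as Jag1, while basal markers were mixed. The 5 luminal markers summed to 2483 to 5739 CPM in shControl, 8082 to 8348 in shMap3k7, 1485 to 1729 in shChd1 and 7927 to 8341 in shDouble. The 7 basal markers summed to 2671 to 5222, 3534 to 4068, 1678 to 1712 and 3273 to 4091 CPM in the same order, and Krt14 made up the larger share of these sums in shControl replicate 1, with 3906 CPM. Of the 5 luminal markers, edgeR called 2 higher in shMap3k7, 4 lower in shChd1 and 4 higher in shDouble against shControl. The shares of all genes were 4.86%, 2.24% and 10.2%. Krt19 was at 91.2 CPM in shControl replicate 3, above shMap3k7 clone 7 (81.9 CPM) and shDouble replicate 4 (67.1 CPM). In shDouble against shControl, Trp63 (log2 -2.90 ± 0.49), Ly6a (-1.15 ± 0.25), Itga6 (-0.89 ± 0.28) and Krt5 (-5.40 ± 1.75) fell and Cd44 rose (1.12 ± 0.15), all by edgeR. The Krt5 call rests on shControl replicate 1, with 784 counts against 1 and 2 in the other controls. In shMap3k7 Trp63 fell (log2 -3.00 ± 0.66) and Cd44 rose (1.04 ± 0.17), and in shChd1 Krt14 fell (-2.04 ± 0.40). The 7 fibroblast markers summed to 24.5 to 92.7 CPM in shControl, 7.35 to 10.0 in shMap3k7, 120 to 125 in shChd1 and 5.11 to 8.77 in shDouble, with Lum at 0 in every library and Dcn at 0 in every library with a Map3k7 hairpin. The 7 mural markers summed to at most 4.12 CPM and the 5 immune markers to at most 2.12 CPM in any library. In bulk RNA, fewer cells of a type and less RNA per cell cannot be told apart, and the part of these markers in the Notch gene differences was not tested.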

How the data were processed

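The deposited table holds expected counts (estimated read counts per gene) made by the authors with Bowtie2 and RSEM 1.3.1 on GRCm38, per the submitters' processing notes, which also name limma. Annotation and strand setting: not given in the sources used here. A deposited table of log2 normalized values served as an alternative. Counts were rounded and analysed in R 4.3.3 with edgeR 4.0.16 (TMM, 4 group means fitted over 11 libraries, quasi-likelihood F-test, Benjamini-Hochberg adjustment over the genes tested, called under 0.05). filterByExpr (minimum count 10, minimum total 15) kept 14346 genes; at most 0.117% of the counts of any library were lost. The code was tested on simulated data. Alternatives were DESeq2 1.42.0, limma 3.58.1, other filters, samples and blocks, and leaving out each library.

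Clones pair the libraries by origin (within-clone correlation 0.631, limma voom). Positions and exon lengths are from GENCODE M21, and gene and antisense reads cannot be separated where they overlap. Reads carry no molecular identifiers. RSEM divides reads shared by similar genes. The members, gene lists and markers were chosen with earlier results of these data known. Named were all members, Map3k7 and Chd1, up to 2 called genes of each pathway list and comparison by smallest adjusted p (1 in each direction where both occurred), and the 5 genes most like Jag1. Further gene and marker names in the text were picked with their values seen.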

Additional observations from a re-analysis of the deposited data

Results flagged for a closer look

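Hes1 differed in opposite directions between libraries with and without a Chd1 hairpin in different clones. Both libraries with a Chd1 hairpin in control clone 4 were below that clone without one, and all 4 in the Map3k7 clones were above theirs, a difference of mean log2 changes of 0.873. The edgeR interaction, which uses all controls, was 1.13 ± 0.28 for Hes1 and did not pass the test (adjusted p = 0.185). Over all clones the within-clone change of Hes1 was log2 0.04 (edgeR adjusted p = 0.988).

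Hey1 differed in opposite directions in the Map3k7 clones. With either Chd1 construct it was higher in clone 1 (log2 0.64 and 0.61) and lower in clone 7 (log2 -1.17 and -1.52), so that clone 7 less clone 1 was -1.97. This difference was not tested, shDouble against shMap3k7 had an edgeR adjusted p of 1 for Hey1, and the clone 7 libraries held few Hey1 counts: 5 and 3 with a Chd1 hairpin and 10 without.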

How the results depend on the processing

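No member changed direction past the test under any alternative tried. The differences of Jag2 and Hes1 between shDouble and shChd1 were called in every alternative run. Summed counts ended the calls of Hes1 (adjusted p = 0.06) and Notch2 (0.0723) in shDouble against shControl. Precision is limited by 2 libraries in each single knockdown, related clones, and few counts of Hey1 and Notch3. The causes of the changes below were not tested.

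Over all genes, shMap3k7 against shControl went from 1712 calls to 2609 by the DESeq2 Wald test, 227 with only the groups compared, 400 with counts summed per clone and 722 with a random replicate block (244 to 2070 leaving out a library, 1085 without shControl replicate 2, 244 and 484 without shMap3k7 replicates 1 and 2). shChd1 against shControl went from 417 to 1715 (DESeq2), 684 (no filter), 0 (only the groups compared), 0 (summed) and 147 (fixed replicate block), with 0 to 2650 leaving out a library. shDouble against shControl went from 3413 to 554 (summed) and 1557 (random replicate block), with 2177 to 3273 leaving out a library, the lowest without shControl replicate 2. shDouble against shChd1 went from 6426 to 1569 (summed) and 3193 (random replicate block), with 3649 to 6585 leaving out a library. The interaction went from 0 to 395 (DESeq2), 31 (no filter) and 11 (fixed replicate block), with 0 to 1006 leaving out a library. Chd1 hairpins within clones went from 4 to 25 (no filter), 1 (no replicate block) and 0 (limma on the deposited table), with 0 to 5 leaving out a library. shDouble against shMap3k7 gave 0 throughout.

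Notch genes called went from 2 to 1 in shMap3k7 with only the groups compared, summed counts or a random replicate block (1 to 2 leaving out a library); from 4 to 0 in shChd1 with only the groups compared or summed counts (0 to 6), and to 3 with the fixed replicate block; and from 3 to 1 in shDouble with summed counts (3 to 4). In shDouble against shChd1 they went from 7 to 3 with summed counts and 4 with the random replicate block (6 to 7). In the interaction they went from 0 to 5 by DESeq2 and 1 without a filter (0 to 5). The 1 call left in shMap3k7 and in shDouble, and the 1 of the interaction without a filter, was Jag1, whose level chose the set. Jag1 is also among the 3 and 4 calls of shDouble against shChd1.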
